A study of Mus musculus with 4 samples.

Results

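Scavenger receptors are surface and endosomal proteins that bind modified lipoproteins, bacterial products and dying cells. The 8 genes Cd36, Msr1, Marco, Scarb1, Cd68, Mrc1, Cd163 and Olr1 were picked by symbol from the 31053 gene features of the deposited matrices; the rule used no measured value, but earlier results of these data were known when it was written. All 8 were present, and all 8 were among the 13869 genes with enough counts to be tested. They were followed in bone marrow macrophages that had or had not taken up dying tumor cells.

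The study asked how efferocytosis, the engulfment of apoptotic cells, changes the transcriptome of macrophages, by droplet single-cell RNA sequencing with a 10x Genomics 3′ kit. BM macrophages were grown with M-CSF from the marrow of young male C57BL/6J mice. Efferocytic BM macrophages were sorted as F4/80+ CFSE+ cells after 16 to 18 h with UV-killed RM1 cells that carried the dye CFSE; RM1 is a prostate cancer line made from C57BL/6J cells with Ras and Myc. Non-efferocytic BM macrophages were F4/80+ cells of cultures that received no tumor cells, and each of 2 experiments gave 1 library of each group. The groups therefore differ in exposure to dead cells, in the sort and in uptake together, and these cannot be told apart. The study's methods give a minimum of independent mice per group over its experiments, but not how many mice each library pooled, so p-values measure only the spread between these libraries.

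The class A receptors Msr1 (SR-A1) and Marco are trimeric proteins with a collagenous stalk, and the class B receptors Cd36 and Scarb1 (SR-BI) are anchored in the membrane at both ends and handle oxidized lipoproteins, fatty acids and HDL cholesterol. Cd68 (macrosialin) is a LAMP-like protein of late endosomes and a usual macrophage marker. Mrc1 (CD206) is the mannose receptor, Cd163 is the receptor for hemoglobin bound to haptoglobin, and Olr1 (LOX-1) is a C-type lectin that binds oxidized LDL. In macrophages, CD36 and SR-A1 are known for driving the lipid loading of foam cells, and CD36 also takes part in the recognition of apoptotic cells.

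After the removal of barcodes with fewer than 200 genes, fewer than 1000 UMIs or over 10% mitochondrial UMIs, the libraries held 6695 to 13411 cells and 101216659 to 155224183 UMIs in cells. The median cell of the efferocytic libraries was deeper, with 17171 and 17475.5 UMIs against 11146 and 9600 in the non-efferocytic ones. One library differed from the rest, the non-efferocytic one of Experiment 2, with 36048 barcodes of 500 to 1000 UMIs against 1048 to 2046 elsewhere and 77.6% of its UMIs in cells against 86.4% to 89.4%. It shared 118 cell barcodes with the efferocytic library of the same experiment, while other pairs shared 14 to 23. Without the cells of shared barcodes, the same numbers of members were called, 3 higher and 3 lower. All 10 macrophage markers were detected in each library, with sums of 47208 and 41149 counts per 1000000 UMIs (CPM) in non-efferocytic cells and 42641 and 32845 CPM in efferocytic cells, of which Lyz2 alone gave 18674 to 32090 CPM.

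Where the members lie is given for GRCm38 by GENCODE vM21. Cd36 lies on the minus strand at chr5:17781690-17888801, Scarb1 on the minus strand at chr5:125277087-125341094 and Cd68 on the minus strand at chr11:69664213-69666153. Mrc1 lies on the plus strand at chr2:14229392-14332057 and Marco on the minus strand at chr1:120474538-120505024. Msr1 lies on the minus strand at chr8:39581685-39642673, Cd163 on the plus strand at chr6:124304656-124330527 and Olr1 on the minus strand at chr6:129485244-129507165. Counts covered whole genes, so isoforms of Msr1 or Scarb1 were not told apart. No other gene of the files overlapped a member on its own strand.

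Promoters of 6 members, from 250 bases before to 50 bases after the start, were found in RefSeq (GRCm38.p6); Msr1 and Scarb1 had no entry. The RefSeq start of Cd36, at 17835896, lies inside the gene, whose GENCODE transcripts have 6 distinct starts, so only 1 of its promoters is described. The windows of 3 members are shown, each 5′ to 3′ on the strand of the gene: Cd36 and Cd68, which were both higher in efferocytic cells, and Mrc1, the most abundant member that was not called. Capitals mark matches, on either strand, to one of the motifs searched, which were the PU.1 core GAGGAA, AP-1 TGANTCA, the NRF2 motif TGACNNNGC, the HIF motif ACGTG, the MITF and TFE E-box CACGTG, which contains the HIF letters, and the nuclear receptor half-site AGGTCA.
Cd36 (chr5:17835847-17836146, minus strand): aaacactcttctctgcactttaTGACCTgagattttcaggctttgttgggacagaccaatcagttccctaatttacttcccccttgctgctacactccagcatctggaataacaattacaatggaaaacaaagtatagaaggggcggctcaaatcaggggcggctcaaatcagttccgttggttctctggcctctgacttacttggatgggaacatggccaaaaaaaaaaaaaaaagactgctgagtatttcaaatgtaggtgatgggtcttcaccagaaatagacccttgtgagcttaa
Cd68 (chr11:69666121-69666420, minus strand): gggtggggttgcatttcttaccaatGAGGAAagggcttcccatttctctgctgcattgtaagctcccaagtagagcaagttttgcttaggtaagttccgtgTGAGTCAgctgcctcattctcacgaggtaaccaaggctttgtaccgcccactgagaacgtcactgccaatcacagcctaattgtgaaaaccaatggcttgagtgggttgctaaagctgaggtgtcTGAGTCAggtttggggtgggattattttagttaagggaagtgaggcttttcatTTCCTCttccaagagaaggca
Mrc1 (chr2:14229164-14229463, plus strand): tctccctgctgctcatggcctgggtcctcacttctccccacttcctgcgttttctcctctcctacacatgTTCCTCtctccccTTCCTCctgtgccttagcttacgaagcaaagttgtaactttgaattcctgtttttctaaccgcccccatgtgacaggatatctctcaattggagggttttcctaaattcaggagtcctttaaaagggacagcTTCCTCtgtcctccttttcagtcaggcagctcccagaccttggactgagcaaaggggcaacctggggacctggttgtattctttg
The Cd36 window held 1 half-site, whose first base lay at -228 from the start, and 16.3% of 32817 promoters of the same length held such a match. The Cd68 window held the PU.1 core at -225 and 30 and the AP-1 motif at -149 and -24. The Mrc1 window held the PU.1 core at -180, -167 and -35 and no other motif of the search. Of all promoters, 28.3% held the PU.1 core and 7.81% the AP-1 motif. Among the windows not shown, the PU.1 core occurred in Marco at -146 and in Olr1 at -76, where AP-1 occurred at -60 and a half-site at -175. The Cd163 window held 1 HIF match at 31 (19.6% of promoters), and none of the 6 windows held the NRF2 motif (12.4% of promoters) or the E-box (7.15% of promoters). These are letter matches and say nothing of binding.

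Levels are in CPM, that is, UMIs scaled to a library total of 1000000 over its kept cells. A UMI marks 1 RNA molecule by 1 end, so CPM was not divided by gene length. Differences are log2 fold changes, efferocytic against non-efferocytic, from edgeR's quasi-likelihood test on the summed UMIs of the 4 libraries, with the experiment as a block, TMM scaling and Benjamini-Hochberg adjustment over the 13869 genes. A gene was called at an adjusted p below 0.05. Of the 8 members, 3 were called higher (Cd36, Msr1 and Cd68), 3 were called lower (Scarb1, Cd163 and Olr1) and 2 were not called (Marco and Mrc1). Over all genes tested, 19.9% were called higher and 19.0% were called lower, 38.9% in all. By CPM alone, whether called or not, 3 of the 8 members were higher in both experiments and 3 were lower in both, against 28.5% and 51.8% of all genes. The median log2 fold change was -0.04 over the members and -0.02 over all genes. Efferocytic cells held more UMIs each, and scaling to UMIs per cell in place of TMM moved the median of all genes to 0.60, called 49.9% of all genes higher and 4.23% lower (92.2% of changed genes higher, against 51.2%), and called 5 members higher and 2 lower. With library totals the median was -0.12, 13.3% of all genes were called higher and 26.7% lower (33.3% of changed genes higher), and 3 members were called in each direction.

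**Figure D1:**
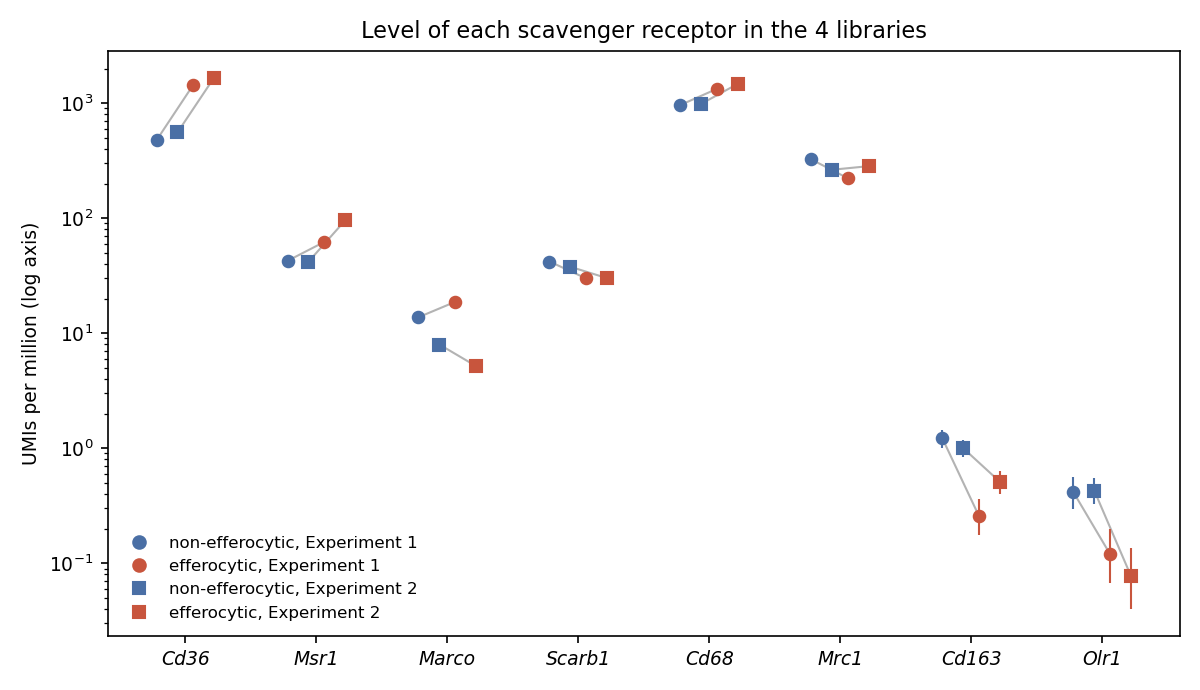
Level of each of the 8 scavenger receptors in the 4 libraries, in UMIs per 1000000 (CPM) on a log axis; lines join the libraries of 1 experiment and bars are 95% Poisson intervals, which cover counting error only. Cd36 sits at 476 and 556 CPM in non-efferocytic cells and at 1440 and 1669 CPM in efferocytic cells, while the lines of Marco and of Mrc1 slope in opposite directions between the experiments.

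In both non-efferocytic libraries the order of levels was Cd68, Cd36, Mrc1, Msr1, Scarb1, Marco, Cd163 and Olr1, from 975 ± 16.7 CPM (SD, n = 2) for Cd68 to 0.421 ± 0.00814 CPM for Olr1. Msr1 and Scarb1 were neighbours there, at 42.2 ± 0.525 and 39.9 ± 2.99 CPM, and differed by no more than their spread. In both efferocytic libraries Cd36 stood first, at 1554 ± 163 CPM, and Cd68 second, at 1405 ± 101 CPM. Their ranges overlapped there, since Cd36 in Experiment 1 lay below Cd68 in Experiment 2, although Cd36 was the higher of the pair within each library.

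Cd36, the fatty acid and oxidized LDL receptor, was the most strongly raised member. Its level was 476 and 556 CPM in the non-efferocytic libraries of Experiments 1 and 2 and 1440 and 1669 CPM in the efferocytic ones. The groups did not overlap, and both experiments showed almost the same step, with log2 CPM ratios of 1.60 and 1.59. The log2 fold change was 1.70 (SE 0.122, adjusted p = 9.40e-05, edgeR), a 3.25-fold rise that ranked 422 by size among the 13869 genes. For all genes tested, 22.2% had both efferocytic libraries above both non-efferocytic libraries.

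The rise of Cd36 was seen in the share of cells as well as in the level per cell. At the depth as sequenced, 79.2% and 79.1% of non-efferocytic cells and 96.3% and 97.4% of efferocytic cells held a Cd36 UMI. Neutrophil-like cells, in which Cd36 is not expected, held one in 40.0% and 39.8% of cells in the non-efferocytic libraries, with a median of 15957 and 15973 UMIs per cell, and in 41.7% and 34.8% in the efferocytic ones. Each library as a whole lay above that level. With every cell thinned to 5000 UMIs, which left out 1099, 544, 3404 and 505 shallower cells of non-efferocytic and efferocytic Experiment 1 and non-efferocytic and efferocytic Experiment 2, the share was 67.8% and 76.0% in non-efferocytic and 92.4% and 97.2% in efferocytic cells. Cells with at least 10 Cd36 UMIs at that depth made up 3.56% and 4.79% of non-efferocytic cells and 29.0% and 36.2% of efferocytic cells. The most heavily loaded single cell held no more than 0.266% of the Cd36 UMIs of its library.

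**Figure D2:**
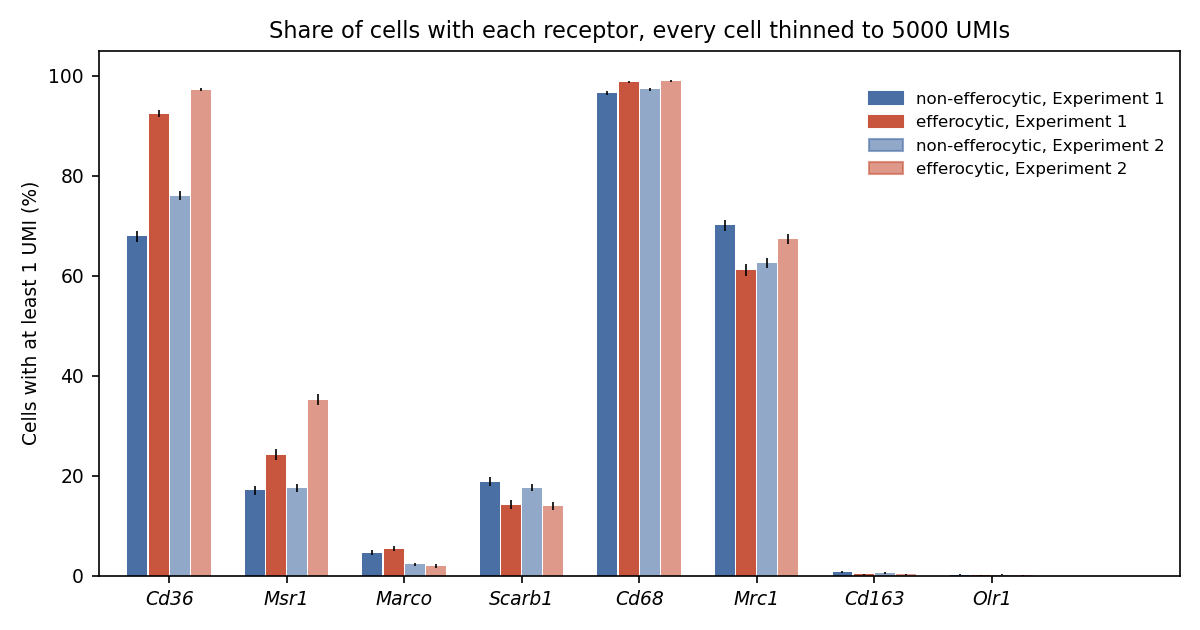
Share of cells with at least 1 UMI of each scavenger receptor in the 4 libraries, with each cell thinned to 5000 UMIs; bars carry exact 95% binomial intervals, which cover counting error only. Cd36 and Msr1 are found in more efferocytic than non-efferocytic cells in both experiments, Cd68 is near 100% in each library, and Cd163 and Olr1 are near 0.

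Msr1, which codes for SR-A1, the receptor for acetylated LDL, was also higher after efferocytosis. Its level was 42.5 and 41.8 CPM in non-efferocytic cells and 62.1 and 95.6 CPM in efferocytic cells. The non-efferocytic libraries lay close together, while the efferocytic library of Experiment 2 lay well above that of Experiment 1. The log2 fold change was 0.98 (SE 0.127, adjusted p = 0.00102, edgeR), with log2 ratios of 0.54 and 1.19 within the experiments. After thinning, a Msr1 UMI was found in 17.05% and 17.53% of non-efferocytic cells and in 24.2% and 35.2% of efferocytic cells. Unthinned, the shares were 32.4% and 28.3% against 51.8% and 67.4%, and in neutrophil-like cells they were 8.33% to 13.6%. Free RNA, the pool of barcodes with under 100 UMIs, also carried Msr1. For Experiment 1 this pool stood at 34.1 CPM without tumor cells and 38.6 CPM with them. For Experiment 2 the matching values were 52.2 CPM, which is above the level in cells of that library, and 90.3 CPM. The step of Experiment 2 was thus present outside cells too.

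Cd68, the endosomal macrosialin, was found in nearly every cell and rose less. Its level was 964 and 987 CPM in non-efferocytic cells and 1333 and 1477 CPM in efferocytic cells. The groups did not overlap, and the log2 fold change was 0.63 (SE 0.121, adjusted p = 0.00516, edgeR), a 1.55-fold rise. Since 96.5% and 97.3% of non-efferocytic and 98.78% and 99.01% of efferocytic cells held a Cd68 UMI at equal depth, the difference between groups in Cd68 was mainly one of UMIs per cell: the mean was 4.63 and 4.72 in non-efferocytic and 6.33 and 7.16 in efferocytic cells. Unthinned, neutrophil-like cells held a Cd68 UMI in 62.7% and 68.6% of cells in non-efferocytic and 41.7% and 69.6% in efferocytic libraries, so a single Cd68 UMI was not particular to macrophage-like cells. Whether those cells express the gene was not tested. The calls of Cd36, Msr1 and Cd68 were kept under all 14 alternatives that used the 4 libraries. They were lost without either non-efferocytic library, when a fit without the block gave Cd36 a log2 fold change of 1.59 (adjusted p = 0.0654, edgeR, without Experiment 1) or 1.82 (adjusted p = 0.0743, edgeR, without Experiment 2).

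Scarb1, the HDL receptor, was the one member of intermediate level that was lower. It was measured at 42.0 and 37.8 CPM in non-efferocytic cells and at 29.9 and 30.1 CPM in efferocytic cells. The groups did not overlap, which was so for 44.7% of all genes in that direction. The log2 fold change was -0.30 (SE 0.0753, adjusted p = 0.0158, edgeR). Scaled to UMIs per cell, which moved the median of all genes to 0.60, the log2 fold change of Scarb1 was 0.32 and thus turned in sign, although it remained below that median. At equal depth, 18.8% and 17.6% of non-efferocytic and 14.2% and 13.9% of efferocytic cells held a Scarb1 UMI. Unthinned, the shares were 36.3% and 29.0% against 38.7% and 39.4%, an order opposite to that of the CPM, from which nothing was read. Neutrophil-like cells held Scarb1 at 50.7 and 39.0 CPM in the non-efferocytic against 35.1 and 28.7 CPM in the efferocytic libraries, so this gene was not particular to macrophages here. The call was lost without the block (adjusted p = 0.0683, edgeR) and with DESeq2 (adjusted p = 0.0616).

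Cd163, the hemoglobin receptor, was near the limit of detection. It was counted with 123 and 138 UMIs in non-efferocytic and 32 and 79 UMIs in efferocytic cells, or 1.22 and 0.997 against 0.256 and 0.509 CPM. The log2 fold change was -1.43 (SE 0.301, adjusted p = 0.00783, edgeR). In each library this level lay below that of free RNA, the pool of barcodes with under 100 UMIs, where Cd163 was at 4.80, 4.57, 1.11 and 0.526 CPM from 32, 25, 8 and 3 UMIs, for non-efferocytic and efferocytic cells of Experiment 1 and then of Experiment 2. The whole-library values therefore do not show expression in these cells, which was not tested. The UMIs were uneven over the non-efferocytic cells. A macrophage-like cluster led by Gpr34 and Hpgd, described below, held 90 of the 123 UMIs in Experiment 1. Its level was 2.201 CPM, against a median of 0.509 CPM over macrophage-like clusters. In Experiment 2 such a cluster held 100 of the 138 UMIs, at 1.497 CPM against a median of 0.760 CPM. The call was lost with 10% of UMIs removed in proportion to free RNA, when the log2 fold change was larger (-2.72, adjusted p = 0.247, edgeR), and without the block, when it was nearly the same (-1.42, adjusted p = 0.0507, edgeR). That removal took all Cd163 UMIs of the efferocytic library of Experiment 1.

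Most UMIs of Olr1, which codes for LOX-1, came from neutrophil-like cells. Its level over all cells was 0.415 and 0.426 CPM in non-efferocytic against 0.120 and 0.0773 CPM in efferocytic cells, a log2 fold change of -2.01 (SE 0.359, adjusted p = 0.00390, edgeR). The call was lost with DESeq2 (log2 fold change -2.01, adjusted p = 0.0537) and with 10% of UMIs removed in proportion to free RNA (log2 fold change -3.04, adjusted p = 0.149, edgeR), and in neither was the difference smaller. That removal took all Olr1 UMIs of the efferocytic library of Experiment 2. Of its 42, 59, 15 and 12 UMIs in those 4 libraries, 83.3%, 78.0%, 73.3% and 91.7% lay in neutrophil-like cells, a cluster led by S100a9, Ngp and Camp. These cells made up 0.906% and 0.880% of non-efferocytic and 0.358% and 0.274% of efferocytic cells. Within them Olr1 stood at 26.5 and 22.4 CPM in non-efferocytic against 22.7 and 22.5 CPM in efferocytic libraries, from 11 to 46 UMIs. In macrophage-like cells it was found with 6, 13, 4 and 1 UMIs, or 14.3%, 22.03%, 26.7% and 8.33% of those of the library, and too few remained for a test. Free RNA held Olr1 at 0.300 and 0.183 CPM in Experiment 1 and 1.95 and 2.45 CPM in Experiment 2, from 1 to 14 UMIs. All 10 of 10 neutrophil markers were called lower over the whole libraries, against 19.0% of all genes tested. Their sums went from 3074 and 3387 CPM to 962 and 721 CPM.

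Marco, the class A receptor for bacteria and particles, had ratios of opposite sign in the 2 experiments. It was measured at 13.8 CPM in non-efferocytic and 18.7 CPM in efferocytic cells of Experiment 1, and at 7.97 and 5.17 CPM in those of Experiment 2. The groups overlapped, and the log2 fold change was 0.03 (SE 0.225, adjusted p = 0.913, edgeR). Its sign turned with library totals in place of TMM (-0.08), and it was called only when scaled to UMIs per cell (0.64, adjusted p = 0.0384, edgeR), close to the median of 0.60 over all genes on that scale. Few cells carried the gene: at equal depth a Marco UMI was found in 4.61% and 2.27% of non-efferocytic and 5.43% and 1.92% of efferocytic cells. Unthinned, the shares were 7.55% and 3.42% against 10.5% and 4.52%, and of all neutrophil-like cells only 2, in the non-efferocytic library of Experiment 2, held one. Its UMIs were concentrated, since a single cell of the non-efferocytic library of Experiment 2 held 95 of the 1102 Marco UMIs. Without the most loaded cell of each library the levels were 13.6 and 18.5 CPM in Experiment 1 and 7.28 and 4.92 CPM in Experiment 2, with the same order. More of the Marco UMIs of that library, 465 of 1102, lay in the 546 cells of its interferon cluster, described below. Whether the order of Experiment 2 holds without that cluster was not tested.

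Mrc1, the mannose receptor, was abundant and not called. Its level was 324 CPM in non-efferocytic and 222 CPM in efferocytic cells of Experiment 1 and 264 and 283 CPM in those of Experiment 2. The groups overlapped, and the log2 fold change was -0.11 (SE 0.138, adjusted p = 0.542, edgeR). Scaled to UMIs per cell it was 0.50 (adjusted p = 0.0177, edgeR), below the median of 0.60 over all genes on that scale. At equal depth a Mrc1 UMI was found in 70.1% and 62.6% of non-efferocytic and 61.1% and 67.3% of efferocytic cells, an order that was that of the levels in each experiment. The size of this difference moved with the depth chosen: it was -8.95 percentage points in Experiment 1 and 4.70 in Experiment 2 at 5000 UMIs, -0.019 and 11.5 at 10000 UMIs, and -10.95 and 0.037 at 2000 UMIs. Unthinned, the shares were 82.4% and 70.2% against 83.9% and 87.3%, and neutrophil-like cells held one in 20.8% to 44.0%.

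The level of Mrc1 also varied with the depth of the cell. When the cells of a library were cut into 4 equal bins by their UMIs, Mrc1 stood at 532 CPM in the shallowest and 220 CPM in the deepest bin of non-efferocytic cells of Experiment 1, and at 316 and 181 CPM in those of efferocytic cells. In Experiment 2 the same bins held 400 and 169 CPM in non-efferocytic against 421 and 219 CPM in efferocytic cells. Marco had such an order in Experiment 1, with 24.8 and 9.77 CPM in non-efferocytic against 35.8 and 13.7 CPM in efferocytic cells. Cd68 had the opposite order in both experiments. In Experiment 1 these bins held 685 and 1075 CPM in non-efferocytic against 956 and 1415 CPM in efferocytic cells. In Experiment 2 they held 803 and 1094 CPM in non-efferocytic against 1159 and 1533 CPM in efferocytic cells. Cd36 was highest in the shallowest bin of 3 libraries, at 1861 CPM in efferocytic cells of Experiment 1, 634 CPM in non-efferocytic cells of Experiment 2 and 2098 CPM in efferocytic cells of Experiment 2, while non-efferocytic cells of Experiment 1 held 514 CPM in the shallowest and 526 CPM in the deepest bin. The lowest Cd36 level of any efferocytic bin was 1305 CPM in Experiment 1 and 1571 CPM in Experiment 2, and the highest of any non-efferocytic bin was 526 and 634 CPM, so the bins of the groups did not overlap.

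**Figure D3:**
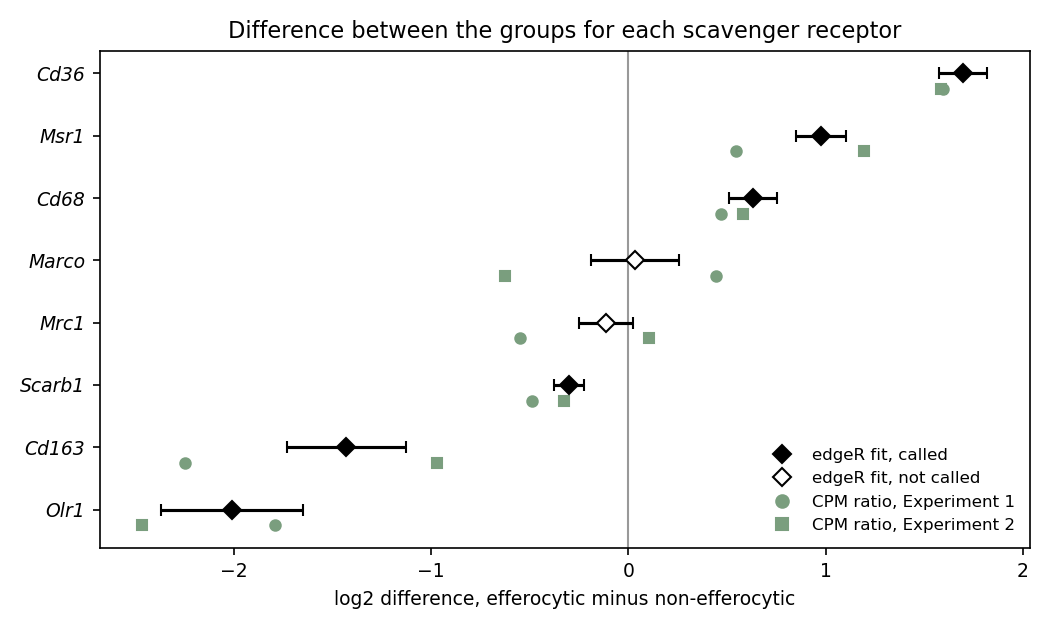
Log2 difference of each scavenger receptor, efferocytic minus non-efferocytic: diamonds are the edgeR fit over the 4 libraries with its standard error, filled where the adjusted p is below 0.05, and circles and squares are the unscaled CPM ratios of Experiments 1 and 2. Cd36, Msr1 and Cd68 lie right of 0 in both experiments, Scarb1, Cd163 and Olr1 left of 0 in both, and the ratios of Marco and Mrc1 fall on either side of 0.

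Clusters of cells were made in each experiment without the 8 members, so that the members could be read across them; these values are descriptions with no test. Experiment 1 gave 13 clusters and Experiment 2 gave 11. Macrophage-like cells, by a list of 10 macrophage markers, made up 92.9% and 80.3% of non-efferocytic and 95.03% and 94.60% of efferocytic cells. Cells of very low UMI count with no name made up 17.5% of the non-efferocytic library of Experiment 2 and 3.88% to 5.87% of the others. Where a cluster is called the highest or the lowest below, this is among macrophage-like clusters with at least 50 cells of that library. The cells lay in different clusters by group: a cluster led by Gpr34 and Hpgd held 46.8% and 47.1% of non-efferocytic cells but 1.81% and 1.02% of efferocytic cells. In Experiment 1, most efferocytic cells lay in clusters led by Cnrip1 and Fabp3 (44.5%) and by Mmp12 and Arg1 (37.3%), and in Experiment 2 in a cluster led by Bcl2l1, Cdkn1c and Npy (80.5%).

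Cd36 was higher in efferocytic cells within each macrophage-like cluster that held at least 50 cells of both groups, 8 of 8 clusters in Experiment 1 and 5 of 5 in Experiment 2. The same was so in 9 of 9 and 8 of 8 clusters at the finer resolution of 1.0, where a cluster led by MHC class II genes is among the 9. Its log2 ratio within the main clusters was 0.46 to 1.93 (median 0.89) in Experiment 1 and 0.26 to 1.47 (median 0.58) in Experiment 2. The smallest ratios were those of the Gpr34 and Hpgd clusters, where Cd36 stood at 276 CPM in non-efferocytic and 380 CPM in efferocytic cells of Experiment 1 and at 419 and 501 CPM in those of Experiment 2. The largest were those of cycling cells, led by Cenpf and Hmmr, where Cd36 was at 444 and 1695 CPM in Experiment 1 and at 544 and 1503 CPM in Experiment 2. Clusters of 1 group differed as well: among efferocytic cells of Experiment 1 the level ranged from 380 CPM to 1950 CPM, the latter in the Mmp12 and Arg1 cluster.

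Cd68 and Msr1 were less even. Cd68 was higher in efferocytic cells of 7 of 8 and 5 of 5 clusters, with median log2 ratios of 0.20 and 0.44, and the exception was the Cav1-led cluster, where it was highest, at 1687 CPM in non-efferocytic and 1557 CPM in efferocytic cells. Msr1 was higher in 6 of 8 and 4 of 5 clusters, with median log2 ratios of 0.33 and 0.29. This depended on the clustering: at a resolution of 1.0 it was higher in 4 of 9 clusters of Experiment 1, with a median of -0.09, and in 8 of 8 of Experiment 2, with a median of 0.57. Its highest level among non-efferocytic cells was in the clusters led by genes of amino acid starvation such as Trib3 and Phgdh, at 125 CPM in Experiment 1 and 105 CPM in Experiment 2. In that cluster of Experiment 1 efferocytic cells held less Msr1, at 83.2 CPM. In cycling cells Msr1 stood at 41.0 CPM in non-efferocytic and 84.5 CPM in efferocytic cells of Experiment 1, and at 44.8 and 108 CPM in those of Experiment 2.

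Scarb1 was lower in efferocytic cells of 7 of 8 and 5 of 5 clusters, with median log2 ratios of -0.22 and -0.40. These are CPM ratios without TMM. Over the whole libraries, 51.8% of all genes were lower by CPM in both experiments, and their median with library totals was -0.12. The share of all genes that were lower within clusters was not computed. Its range over clusters was narrow: the highest was 2.08 times the lowest in non-efferocytic cells of Experiment 1. Its highest level there was 56.1 CPM, in cells led by Cxcl10 and the interferon-induced Ifit genes, and the interferon cluster of Experiment 2 held 45.9 CPM, again the highest of these clusters, while the unnamed cells of that library held 47.8 CPM.

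**Figure D4:**
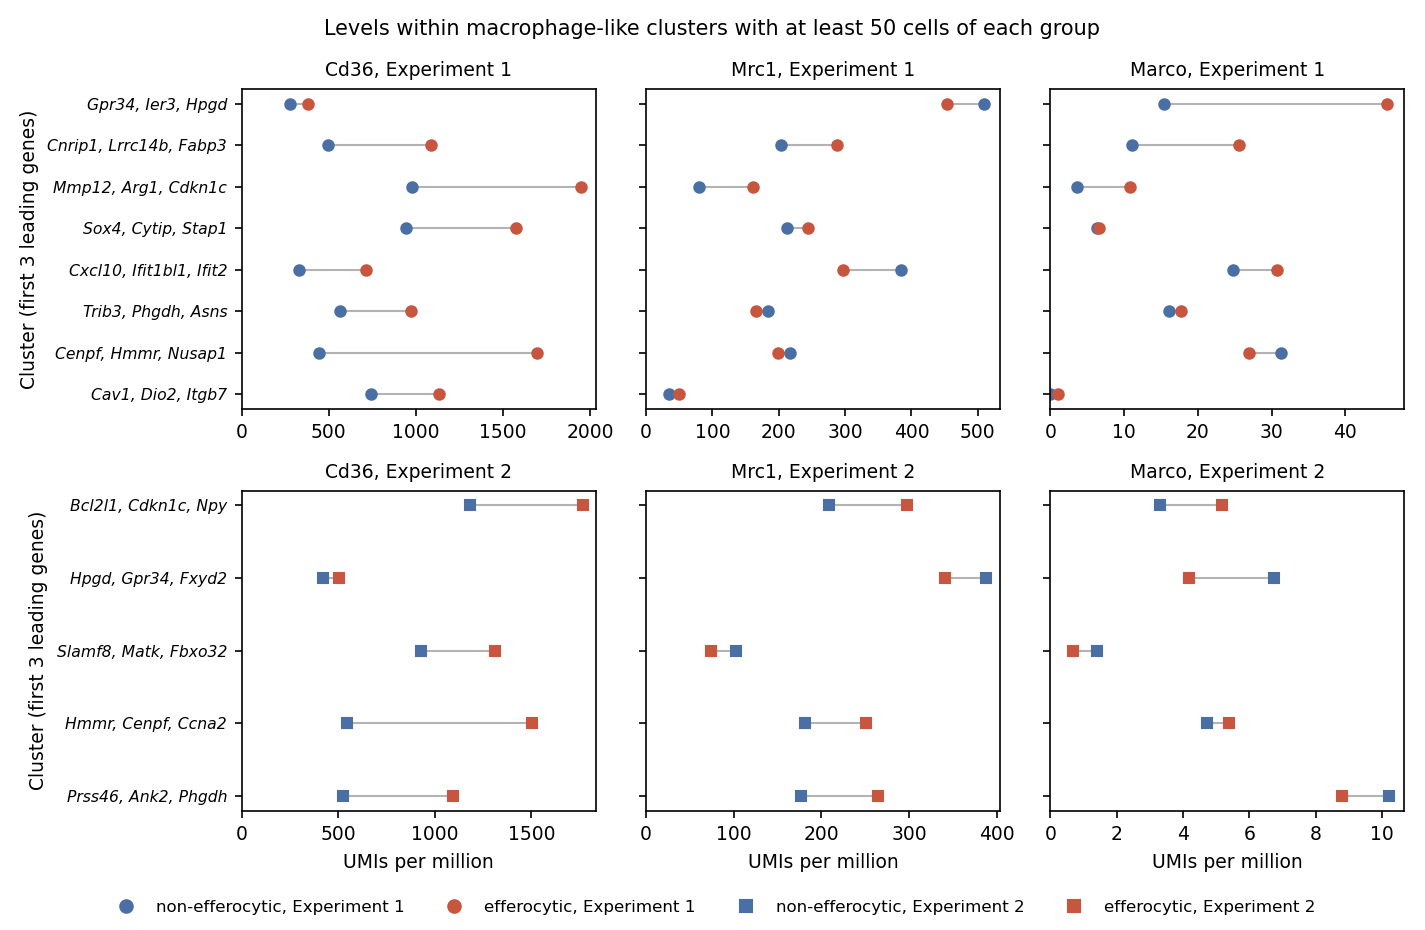
Levels of Cd36, Mrc1 and Marco, in CPM, in non-efferocytic and efferocytic cells of each macrophage-like cluster with at least 50 cells of both groups; each row is a cluster, named by its 3 leading genes. Cd36 is higher in efferocytic cells of each cluster shown, while Mrc1 is higher in 4 of 8 and 3 of 5.

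Mrc1 had no single direction within clusters. Efferocytic cells were higher in 4 of 8 and 3 of 5 clusters, with log2 ratios from -0.37 to 1.02 in Experiment 1 and from -0.47 to 0.58 in Experiment 2. At a resolution of 1.0 they were higher in 3 of 9 clusters of Experiment 1 (median -0.07) and in 7 of 8 of Experiment 2 (median 0.36), the directions of the whole libraries. The Gpr34 and Hpgd clusters held the most, at 510 CPM in non-efferocytic and 454 CPM in efferocytic cells of Experiment 1 and 388 and 341 CPM in those of Experiment 2. The least was found in the Cav1 cluster of Experiment 1, at 34.4 and 49.2 CPM, and in the Slamf8 and Mmp12 cluster of Experiment 2, at 103 and 74.1 CPM. Its range over non-efferocytic clusters was 14.8-fold in Experiment 1 and 3.79-fold in Experiment 2.

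Marco was also uneven over clusters. In Experiment 1 it was highest, at 45.7 CPM, in the 121 efferocytic cells of the Gpr34 cluster, whose 3871 non-efferocytic cells held 15.5 CPM. In the Cnrip1 and Fabp3 cluster, of which Marco is itself one of the 10 leading genes, it stood at 25.6 CPM in efferocytic and 11.2 CPM in non-efferocytic cells. In Experiment 2 the highest level was 70.6 CPM, from 465 UMIs in 546 non-efferocytic cells of the interferon cluster. The median over the 7 macrophage-like clusters of that library with at least 50 cells was 4.72 CPM. Of clusters with at least 10 Marco UMIs in each group, efferocytic cells were higher in 5 of 6 in Experiment 1 and 1 of 2 in Experiment 2, and at a resolution of 1.0 in 5 of 6 and 1 of 3. At that resolution the interferon cluster of Experiment 2 held Marco at 65.1 CPM in 589 non-efferocytic cells and 5.44 CPM in 116 efferocytic cells, from 464 and 11 UMIs, a log2 ratio of -3.58. The interferon cluster of Experiment 1 went the other way, with a log2 ratio of 0.51. It held 25.5 CPM in 1155 non-efferocytic cells and 36.4 CPM in 187 efferocytic cells.

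Levels of the members were compared over the sums of each cluster in each library, 20 points in Experiment 1 and 19 in Experiment 2, which share libraries, depth and free RNA. The points mix both groups, and they include unnamed and neutrophil-like clusters, and in Experiment 2 fibroblast-like ones. The r values therefore also carry the differences between groups and between cell classes, and do not describe macrophages of 1 group. Cd36 and Cd68 went together most closely among member pairs with Cd36, with Pearson's r of log2(CPM + 1) of 0.78 and 0.87. Cd36 and Msr1 had an r of 0.63 and 0.83, and Marco and Mrc1 an r of 0.70 and 0.75. Cd36 and Mrc1 had no common sign, at -0.22 and 0.49, and Cd36 and Scarb1 were at -0.52 and -0.14. Within single cells thinned to 5000 UMIs, the share of cells with both genes of a pair was set against the product of their shares. This ratio was 1.02 to 1.16 over the 4 libraries for Cd36 and Msr1, 0.979 to 1.01 for Cd36 and Mrc1 and 1.12 to 1.16 for Marco and Mrc1. It was 1.27 to 1.53 for Mrc1 and Cd163 and 1.32 to 1.75 for Msr1 and Cd163, from 15 to 57 cells with Cd163 in a library. Ratios with a gene found in nearly every cell, such as Cd68, have little room above 1. This also holds for Cd36 in the efferocytic libraries, where 92.4% and 97.2% of thinned cells held it. For Cd36 and Msr1 the ratio was 1.16 and 1.10 in non-efferocytic against 1.04 and 1.02 in efferocytic libraries. A thinned cell held a mean of 2.76 and 2.74 of the 8 members in non-efferocytic and 2.96 and 3.15 in efferocytic libraries, and none held all 8.

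Over the same points, genes averaging 10 CPM or more were ranked by the lower of their 2 values of r with each member. The genes most like Cd36 were Ctsl, the lysosomal protease cathepsin L (0.89 and 0.91), Lat2 (0.87 and 0.92) and Steap3, a metal reductase (0.91 and 0.87). Those most like Cd68 were Lat2 (0.93 and 0.95), Dusp3 and Renbp. Msr1 was nearest to Blvra (0.84 and 0.86), the biliverdin reductase, then Slc16a10 and Tlr13. Mrc1 was nearest to Reps2 (0.90 and 0.92), Tlr7 and Plxnc1, and Scarb1 to Khnyn (0.85 and 0.91), Zcchc6 and Tet2. The likeness of Marco was lower, at 0.76 and 0.72 for Sec14l1, followed by the chemokine gene Ccl4 and the heparanase gene Hpse.

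Other scavenger receptors were called in both directions. Of 17 in the files, 14 were tested, of which 3 were called higher (21.4%, against 19.9% of all genes) and 5 lower (35.7%, against 19.0%), with a median log2 fold change of -0.34 against -0.02 over all genes, and scaling to UMIs per cell gave 4 higher and none lower, with a median of 0.28. On that scale 49.9% of all genes were called higher and 4.23% lower, with a median of 0.60, so the median of the list lay below that of all genes on both scales. Cd14, the co-receptor for lipopolysaccharide, fell from 192 ± 50.6 to 98.4 ± 26.5 CPM (SD, n = 2; log2 fold change -0.86, adjusted p = 3.41e-04, edgeR). Stab1 (stabilin 1) fell from 544 ± 115 to 279 ± 26.8 CPM, and Cxcl16, a membrane-bound chemokine that binds oxidized LDL, fell from 172 ± 37.2 to 99.8 ± 42.6 CPM. Per cell, none of these 3 passed the test (log2 fold changes -0.24, -0.23 and -0.11). The 3 that rose were Lrp1 (0.48), Cd44 (0.38) and Scarb2 (0.29), the lysosomal relative of Cd36 and Scarb1. Without the block the calls of Cd14, Cxcl16, Cd44 and Scarb2 were lost, and that of Scarb2 also with library totals.

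Relatives of the members by sequence were counted in the same way. Of the mannose receptor family, Ly75 (DEC-205) rose from 1.13 ± 0.284 to 1.85 ± 0.399 CPM, Mrc2 fell from 0.982 ± 0.0621 to 0.399 ± 0.0356 CPM and Pla2r1 was not called. Scaled to UMIs per cell, the fall of Mrc2 was not called (log2 fold change -0.58). DESeq2 called neither Ly75 (adjusted p = 0.0934) nor Mrc2 (adjusted p = 0.0620), and edgeR without the block did not call Ly75 (adjusted p = 0.0972). Lamp1 and Lamp2, lysosomal membrane proteins related to Cd68, had log2 fold changes of 0.35 and 0.24 and were not called. Both were called higher per cell (0.97 and 0.85, against a median of 0.60 over all genes), and Lamp1 was called with DESeq2 and with library totals. Of 10 C-type lectins of myeloid cells tested, 2 were called higher and 6 lower, against 19.9% and 19.0% of all genes, with a median of -0.68 against -0.02. Scaled to UMIs per cell, 2 were called higher and 4 lower, against 49.9% and 4.23% of all genes. Mgl2 fell from 2.99 ± 0.0352 to 0.537 ± 0.122 CPM, Clec10a from 66.7 ± 5.58 to 18.8 ± 3.84 CPM and Clec4a1 from 118 ± 11.0 to 39.4 ± 5.89 CPM. Mgl2 and Clec10a are galactose-binding lectins that are often listed with Mrc1 as markers of alternative activation.

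Genes induced by IL-4, a class in which Mrc1 is commonly placed, were mostly lower. Of 7 tested, 5 were called lower and 1 higher, against 19.0% and 19.9% of all genes, with a median of -1.61. Scaled to UMIs per cell, 4 were lower and 2 higher, against 4.23% and 49.9% of all genes. Ccl24 fell from 6.95 ± 0.0651 to 0.762 ± 0.167 CPM and Chil3 from 162 ± 10.1 to 49.6 ± 5.04 CPM. The one that rose was Arg1, from 0.780 ± 0.307 to 9.56 ± 10.6 CPM, whose spread over the efferocytic libraries was as large as its mean. Its call was lost without the block (adjusted p = 0.0694, edgeR) and with DESeq2 (adjusted p = 0.113). Chil3 was also among the leading genes of the neutrophil-like clusters, and the part of those cells in its fall was not tested.

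The genes that work with CD36 were taken as partners and as carriers. Of 16 genes for co-receptors and signalling, 3 were called higher (18.75%) and 2 lower (12.5%), shares no greater than the 19.9% and 19.0% of all genes, with a median of 0.05. Scaled to UMIs per cell, 11 were higher and none lower, against 49.9% and 4.23% of all genes, with a median of 0.67 against 0.60. Cd9, a tetraspanin found with CD36, rose from 513 ± 33.6 to 853 ± 47.6 CPM (log2 fold change 0.84, adjusted p = 0.00175, edgeR). Tlr2 fell from 59.6 ± 14.4 to 26.2 ± 4.82 CPM and Vav2 from 15.9 ± 1.56 to 10.0 ± 1.33 CPM. Neither fall was called when scaled to UMIs per cell (log2 fold changes -0.45 and 0.05), and that of Vav2 was not called without the block. Lipid carriers and storage genes moved mainly upward: of 18 tested, 12 were called higher (66.7%) and 3 lower (16.7%), with a median of 0.41, and scaled to UMIs per cell 13 were higher and none lower, with a median of 1.03 against 0.60 over all genes. Fabp4, a fatty acid carrier, rose from 241 ± 45.5 to 677 ± 162 CPM, Plin2, a coat protein of lipid droplets, from 809 ± 3.50 to 1972 ± 248 CPM and Fabp5 from 3079 ± 457 to 6093 ± 102 CPM.

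Transcription factors that include known regulators of these receptors were called in both directions. Of 18 tested, 2 were called higher (11.1%, against 19.9% of all genes) and 4 lower (22.2%, against 19.0%), with a median of -0.10, while scaling to UMIs per cell gave 9 higher and none lower, where 49.9% of all genes were higher and 4.23% lower. Library totals gave 1 higher and 9 lower, where 13.3% of all genes were higher and 26.7% lower. Nr1h3, which codes for the oxysterol receptor LXR alpha, rose from 18.0 ± 1.42 to 35.7 ± 0.0690 CPM (log2 fold change 1.10, adjusted p = 1.41e-04, edgeR), while Cebpb fell from 382 ± 23.8 to 251 ± 44.1 CPM and Mitf from 62.3 ± 3.09 to 42.6 ± 0.0444 CPM. Both turned in sign and were not called when scaled to UMIs per cell (0.11 and 0.18), and Cebpb was not called without the block. Of 10 NRF2 targets, 1 was called higher (Hmox1, 297 ± 8.35 to 370 ± 5.69 CPM) and 3 lower, among them Osgin1, from 39.7 ± 8.70 to 21.8 ± 0.655 CPM, and Slc7a11, from 6.33 ± 2.40 to 4.29 ± 0.786 CPM. The median of that list was -0.20, and scaling to UMIs per cell gave 4 higher and none lower, with a median of 0.42 against 0.60 over all genes. Osgin1 (-0.12) and Slc7a11 (0.20) were then not called, and the call of Slc7a11 was also lost without the block and with DESeq2.

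Markers of other cells moved with the groups, and their part in the member results was not tested apart from what is given above for Olr1. Beside the counts that follow, 19.9% of all genes were called higher and 19.0% lower, and 49.9% and 4.23% when scaled to UMIs per cell. Of the 10 macrophage markers, 5 were called lower and 1 higher, with a median of -0.33, and 1 was lower and 4 were higher when scaled to UMIs per cell. With library totals 8 were lower and 1 higher, where 26.7% of all genes were lower and 13.3% higher. Without the block 1 was lower and 1 higher, where 1073 of the 13869 genes were lower and 1285 higher. Csf1r, the receptor for M-CSF, fell from 849 and 732 CPM to 364 and 299.9 CPM and was called lower on both scales. All 5 of 5 monocyte markers fell, from sums of 68.8 and 77.8 CPM to 26.0 and 15.8 CPM, and 4 of 7 fibroblast markers fell, from 146 and 122 CPM to 46.8 and 52.7 CPM; scaled to UMIs per cell, 4 of 5 and 2 of 7 were called lower. A list of 10 epithelial genes, drawn up as possible markers of tumor cells, summed to 1.02 and 11.6 CPM in non-efferocytic against 0.160 and 9.43 CPM in efferocytic cells. The study lists RM1 cells as fibroblast-like, and whether they express these genes was not tested. Erythroid genes stood at 44.2 and 46.4 CPM in the libraries of Experiment 2 and at 0.484 and 0.272 CPM in those of Experiment 1. With macrophage-like clusters alone, Cd36, Msr1 and Cd68 were again called higher and Scarb1 and Cd163 lower, and Olr1 was not tested.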

How the data were processed

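The authors deposited matrices of raw UMI counts (genes by barcodes), made with Cell Ranger (3.0.0 per the labels and the file headers of Experiment 1, 3.1.0 per the file headers of Experiment 2), which aligned reads with STAR to mm10; per the labels Seurat 3.1 was used downstream. A further deposited table of the authors' own fold changes and p-values was not used. Groups and experiments came from the labels, and the labels' experiment marked the shared batch. Deviations of same-experiment libraries from their group means correlated at 0.799 over 7097 genes.

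Cells were barcodes with at least 200 genes, 1000 UMIs and at most 10% mitochondrial UMIs. Their counts were summed per library and tested with edgeR 4.0.16 in R 4.3.3 (quasi-likelihood, experiment as a block, TMM, filterByExpr, two-sided), which was tested on simulated data. Clusters came from scanpy 1.11.5 and leidenalg 0.10.2 (5000 variable genes without the members, 20 components, resolution 0.5, each experiment alone), and were named from fixed marker lists. Clusters led by MHC class II genes and Ccr2 were left out only of the alternative of macrophage-like clusters alone. Likely doublets by Scrublet score were kept in the main values and removed in an alternative. Intervals (exact Poisson and exact Clopper-Pearson, 95%) cover counting error only, and a count of 0 allows up to 3 counts.

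The members and the gene lists were chosen with earlier results of these data known. Text names the 8 members, the 3 genes of each list with the largest absolute log2 fold change that average 1 CPM or more, and the 3 genes most like each member with at least 10 CPM. Lrp1, Cd44, Scarb2, Mrc2 and Pla2r1 were named after their values were seen, and Csf1r was also named outside this rule. Alternatives covered the test, block, scaling, filters, cell choice, doublets, free RNA, shared barcodes (chosen after seeing the data), depth and clustering. Promoters were read from RefSeq windows and gene positions from GENCODE.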

Additional observations from a re-analysis of the deposited data

Results flagged for a closer look

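Marco and Mrc1 stood out because their libraries moved in opposite directions in the 2 experiments. The log2 CPM ratio of Marco, efferocytic to non-efferocytic, was 0.44 in Experiment 1 and -0.62 in Experiment 2. For Mrc1 it was -0.55 in Experiment 1 and 0.10 in Experiment 2. In the non-efferocytic library of Experiment 2, 465 of the 1102 Marco UMIs lay in the 546 cells of the interferon cluster. The ratio of Marco without that cluster was not tested, so the opposite sign may rest on it. With 1 library per group in each experiment, the difference between experiments was not tested.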

How the results depend on the processing

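Cd36, Msr1 and Cd68 were called higher under all 14 alternatives that used the 4 libraries. The experiment paired the libraries. Without the block, 3 members were called higher and 1 lower, with Scarb1 at an adjusted p of 0.0683 and Cd163 at 0.0507 (edgeR), all genes at 1285 higher and 1073 lower, and other scavenger receptors at 1 and 1. DESeq2 with the block called 1 member lower (Cd163, with Scarb1 at 0.0616 and Olr1 at 0.0537), 1418 of all genes lower and 3 other receptors lower. Scaling to UMIs per cell called 5 members higher, 6921 of all genes higher, 586 lower and 0 other receptors lower, and reversed Scarb1 (0.32) and Mrc1 (0.50). A mean of at least 10 CPM tests fewer genes (7097) and only 6 members, since Cd163 and Olr1 fall below it. It left 1 member lower, 1473 of all genes higher and 1553 lower, and 1 other receptor higher. With 10% of UMIs removed in proportion to free RNA, 1 member was lower, 1391 of all genes were higher and 1082 lower, and other receptors counted 1 higher and 3 lower. Cd163 (log2 fold change -2.72, adjusted p = 0.247) and Olr1 (-3.04, 0.149) then lost their calls (edgeR) with larger differences. The removal left no UMI of Cd163 in the efferocytic library of Experiment 1 and none of Olr1 in that of Experiment 2, so these larger differences were set by the removal. Marco turned sign with library totals (-0.076), at least 10 CPM (-0.057) and macrophage-like clusters alone (-0.020).

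Leaving out 1 library, without the block, gave 0 to 3 members higher, 0 to 1 lower, 0 to 1658 of all genes higher, 0 to 1275 lower, 0 to 1 other receptors higher and 0 to 3 lower. The lone library of a group was then taken to vary like the others. Without the non-efferocytic library of Experiment 2 edgeR called 0 genes, though 3494 had an unadjusted p under 0.05. Without that of Experiment 1 it called 2, with 2999. Marco then ranged from -0.995 to 0.94, lowest with the efferocytic library of Experiment 1 left out, and was at -0.068 when the non-efferocytic one of Experiment 2 was. Mrc1 ranged from -0.26 to 0.046, and was above 0 without either library of Experiment 1 (0.024 without the efferocytic one). Depth limits Cd163 and Olr1, counted with 12 to 138 UMIs per library.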

Other observations

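Clusters with too few efferocytic cells to be compared within a cluster also held the receptors. In clusters led by MHC class II genes with Ccr2, non-efferocytic cells held Cd36 at 341 CPM in Experiment 1 (559 cells) and 244 CPM in Experiment 2 (592 cells), the lowest Cd36 level of any macrophage-like cluster of that library of Experiment 2. Mrc1 was at 161 and 140 CPM there, and Msr1 at 39.6 and 43.8 CPM. Efferocytic cells of these clusters numbered 26 and 49, with Cd36 at 440 and 400 CPM.

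The unnamed cells of very low UMI count, with medians of 1243 to 1462 UMIs per cell, showed the same order of groups for Cd36 as other cells. Cd36 stood there at 298 and 467 CPM in non-efferocytic against 965 and 1552 CPM in efferocytic libraries of Experiments 1 and 2. Cd68 was at 973 and 975 CPM in non-efferocytic against 1379 and 1336 CPM in efferocytic libraries. Fibroblast-like cells held Cd36 at 107 and 102 CPM in non-efferocytic against 238 and 178 CPM in efferocytic libraries. These values came from 30 and 169 non-efferocytic and 13 and 105 efferocytic cells. Neutrophil-like cells differed less, at 107 and 114 CPM (75 and 118 cells) against 116 and 143 CPM (24 and 23 cells). Free RNA held Cd36 at 362 and 419 CPM in non-efferocytic against 876 and 1065 CPM in efferocytic libraries, so the difference between groups was present outside cells too.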
